A study of Mus musculus with 2 samples.

Results

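The replication-dependent histone genes are the clustered genes that supply the histones used to package newly copied DNA. In RNA-seq of pre-pro-B (*Ebf1* -/-) and pro-B (*Rag2* -/-) cells of the mouse they numbered 66 of 20250 protein-coding genes with a name, and were chosen by name alone: every RefSeq protein-coding transcript whose gene symbol, current or older, places it in the Hist1, Hist2, Hist3 or Hist4 group. By class there were 6 H1, 18 H2a, 17 H2b, 12 H3 and 13 H4 genes. The older symbols are used throughout (*Hist2h2bb* is now H2bc18, for example). The testis-type H1 gene *Hist1h1t* is included because its older symbol is of this form. A transcript of the *Hist3h2bb* locus had no gene in the RefSeq gene table used for names and is left out, also from the Hist3 sums.

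Each cell type was represented by 1 library. The pre-pro-B cells were *Ebf1* -/-, came from female fetal liver and were grown with Il-7 (5 ng/mL), Scf (10 ng/mL) and Flt3l (10 ng/mL), whereas the pro-B cells were *Rag2* -/-, came from the bone marrow of adult males and were grown with Il-7 (5 ng/mL) alone. Both were of the C57BL/6 strain and were grown on OP-9 cells, a mouse stromal line that supports B lymphoid growth, and both were washed off the stroma before RNA extraction. The B lineage therefore stops before commitment in the first culture, which lacks the transcription factor Ebf1, and before the pre-B stage in the second, which cannot rearrange antigen receptor genes. Cell stage, genotype, sex, age, tissue of origin and cytokines differ together and cannot be told apart. The RNA was total RNA depleted of ribosomal RNA and, by column cleanup, of short RNAs, with no selection for poly(A), so that histone messages, which lack a poly(A) tail, were not removed by that step.

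Values are FPKM, which count fragments relative to transcript length and library size and were estimated by the authors for each RefSeq transcript, so levels of different genes are compared per length. The bracketed limits are those of the 95% confidence interval that Cuffdiff gave each FPKM. Changes are log2 ratios of pro-B to pre-pro-B after adding 1 FPKM, and a gene was called higher or lower at 2-fold on that scale. With 1 library per cell type there is no replicate check, so no p-value is given and the calls compare these 2 libraries. The targeted genes were read first, and each had the lower value where it was deleted: *Ebf1* had 64.03 FPKM in the *Ebf1* -/- library and 273 in the other, *Rag2* had 34.5 FPKM in pre-pro-B and 22.9 in the *Rag2* -/- library. Of the markers of cell stage, 6 of 6 pro-B markers other than *Ebf1* were higher in pro-B and 3 of 3 progenitor markers were lower. Neither targeted gene was at 0, and FPKM over a whole transcript does not show which part of a deleted gene was read. The FPKM of 10 stromal markers summed to 19.98 in pre-pro-B and 15.8 in pro-B, and *Dcn* and *Postn* were listed at 0 in both. *Pdgfrb* (15.9 and 0.377 FPKM) set the direction of that sum. Without it the sum was 4.06 in pre-pro-B and 15.4 in pro-B, the 7 other markers above 0 each had the higher value in pro-B, and 3 of these were called higher: *Fn1* (1.16 and 5.16), *Cxcl12* (0.618 and 2.92) and *Col1a2* (0.707 and 2.82). For 6 myeloid markers the sum was 61.0 and 6.52, with *Elane* and *Ctsg* at 0 in both, and for 4 T lineage markers 38.6 and 0.137. Most of the T lineage sum in pre-pro-B was *Cd3g* (36.8 and 0.0351 FPKM). Of 3 erythroid markers measured, the highest value was 0.196. The part of other cells in the histone values was not tested.

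Histones wrap DNA into nucleosomes. H2a, H2b, H3 and H4 form the core around which the DNA is wound, and H1 binds the linker DNA where it enters and leaves. Their genes lack introns and lie in clusters, and most are transcribed in S phase, when the demand for new nucleosomes is high. In place of a poly(A) tail their messages end just after a short stem-loop, which is bound by Slbp. The cut after it is made by a machinery that includes the U7 snRNP, and the stem-loop also serves in translation and in the decay of the message at the end of S phase. Npat, at the histone locus body, drives their transcription. Replacement histones such as H3.3 and H2A.Z are made from separate, polyadenylated genes outside S phase as well.

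The stem-loop is the feature that sets these messages apart, so it was sought in mm9 within 300 bases after the coding end of each gene. The form sought has 16 bases, with GG at its start, CC at its end and a stem of which inner letters may vary. It was present on the coding strand in 60 of 66 members. Between the last codon before the stop codon and this form lay 24 to 61 bases (median 33.5), the stop codon included. In 38 members it was 1 identical sequence, and in the other 22 it was a variant. The sequences of members whose levels or changes are given below are printed with the stem-loop in capitals and the neighbouring bases in lower case, 5′ to 3′ on the coding strand, as DNA.
Hist1h1a (H1; chr13:23856256-23856281, plus strand): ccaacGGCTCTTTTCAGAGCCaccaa
Hist1h2af (H2a; chr13:23626223-23626248, plus strand): ccaaaGGCTCTTTTCAGAGCCaccac
Hist2h2ac (H2a; chr3:96024336-96024361, minus strand): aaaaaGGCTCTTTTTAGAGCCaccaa
Hist1h2bb (H2b; chr13:23839067-23839092, plus strand): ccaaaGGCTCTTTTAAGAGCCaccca
Hist1h2bl (H2b; chr13:21807582-21807607, minus strand): tcaaaGGCTCTTTTAAGAGCCaccca
Hist1h3c (H3; chr13:23836911-23836936, minus strand): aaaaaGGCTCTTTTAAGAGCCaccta
Hist1h4d (H4; chr13:23673814-23673839, plus strand): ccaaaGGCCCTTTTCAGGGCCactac
Hist1h4c (H4; chr13:23789953-23789978, minus strand): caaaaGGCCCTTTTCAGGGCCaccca
Hist1h4j (H4; chr13:21827301-21827326, plus strand): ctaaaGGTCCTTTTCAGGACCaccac
Hist2h4 (H4; chr3:96066857-96066882, minus strand): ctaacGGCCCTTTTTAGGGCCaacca
The stems sorted with the class. Every one found in an H1, H2a, H2b or H3 gene had the stem GGCTC paired with GAGCC. Of the 12 found in H4 genes, 10 had GGCCC paired with GGGCC and 2, in *Hist1h4j* and *Hist1h4b*, had GGTCC paired with GGACC. Each class held more than 1 version of the 16 bases.

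The form was not found in *Hist1h2an*, *Hist2h2bb*, *Hist2h2be*, *Hist1h3g* and *Hist1h4a*, and *Hist2h3c2*, a pseudogene in the GENCODE annotation of mm9, has no annotated coding end. A search for the nearest sequence, added after these 5 were seen, placed a candidate in 4 of them. The counts of mismatches given here are against the sequence shared by the 38 members. For *Hist2h2bb* the annotated coding sequence is spliced past the stem-loop, which lay with 0 mismatches at the end of the RefSeq transcript. *Hist1h2an* differed at 1 position, *Hist1h3g* at 2 and *Hist1h4a* at 3. None of the 38 is an H4 gene, and *Hist1h4a* has the GGCCC and GGGCC stem of most H4 genes. Part of its count is therefore a difference between classes.
Hist2h2bb (H2b; chr3:96074089-96074114, plus strand): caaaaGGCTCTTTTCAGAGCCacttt
Hist1h2an (H2a; chr13:21878642-21878667, minus strand): acaaaGGCTCTTTTCAGAGCTaacac
Hist1h3g (H3; chr13:23627753-23627778, plus strand): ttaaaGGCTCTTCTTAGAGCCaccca
Hist1h4a (H4; chr13:23852664-23852689, minus strand): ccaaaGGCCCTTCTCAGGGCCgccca
These candidates are matches by sequence, and whether they work as stem-loops was not measured. *Hist2h2be* had none.

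Most histone genes were higher in pro-B. At 2-fold, 45 of 66 members (68.2%) were higher, where 6.34% of all 20250 genes were, and 4 (6.06%) were lower, where 9.94% of all genes were. A further 11 changed by less than 2-fold and 6 were listed at 0 in both libraries, which is not read as absence here. The median log2 change was 1.95 over the members and 0 over all genes. Without regard to the threshold, 52 members had the higher value in pro-B and 8 in pre-pro-B. A mean FPKM of at least 1 was reached by 57 members, among them all 49 that were called, and of the 10131 genes with that mean 12.2% were higher and 17.9% lower. In such bulk libraries a larger share of cells that express a gene and more RNA per cell cannot be told apart.

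**Figure D1:**
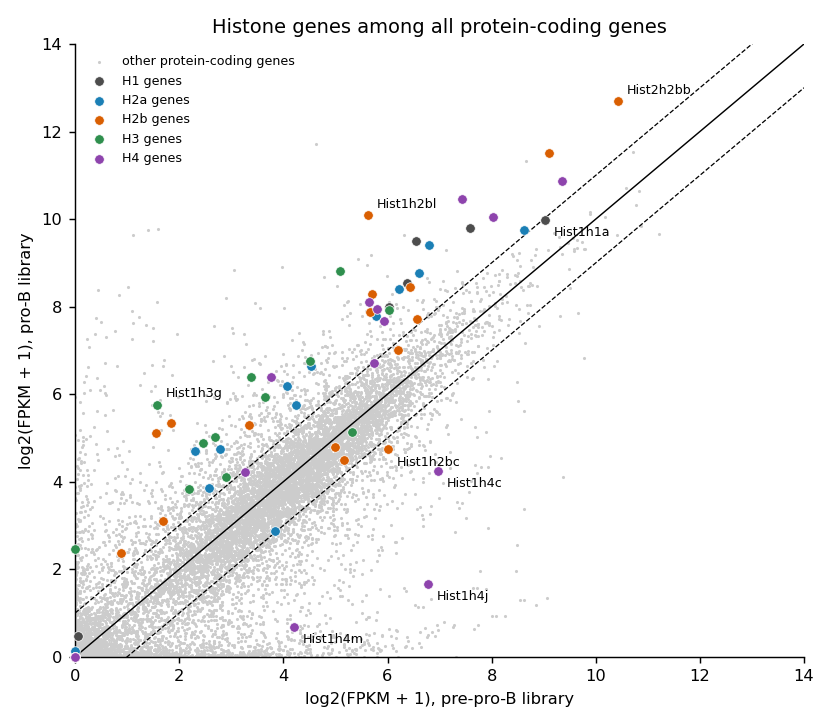
log2(FPKM + 1) of each protein-coding gene in the pre-pro-B library (horizontal axis) and the pro-B library (vertical axis), with histone genes coloured by class and other genes in grey. The solid line marks equal values and the dashed lines a 2-fold difference; 45 histone genes were called above the upper dashed line and 4 below the lower one, 3 of these from the H4 class.

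Together the 66 genes had 5994 FPKM in pre-pro-B and 24582 in pro-B, a ratio of 4.10. As a share of the FPKM of all protein-coding genes this was 1.93% and 7.28%. Of the 100 genes with the highest FPKM, 5 were histone genes in pre-pro-B and 15 in pro-B.

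Cuffdiff's intervals were wide for single genes. Of the 59 members with 1 transcript entry, the pro-B interval lay wholly above the pre-pro-B interval in 4 (*Hist1h2bl*, *Hist1h3c*, *Hist1h3g* and *Hist2h3c2*) and wholly below it in 1 (*Hist1h4j*), and the intervals overlapped in 54, zeros included. For *Hist2h3c2* the pre-pro-B value and both its limits were 0, so any pro-B lower limit above 0, here 0.116, places it in that group. Over all 26555 named protein-coding transcripts, 0.678% had the pro-B interval above and 1.45% had it below. For most single members the intervals thus overlapped, and such overlap is not a test of the difference between the libraries.

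All 5 classes were higher in pro-B when their FPKM were summed. H1 genes had 949 FPKM in pre-pro-B and 3248 in pro-B (ratio 3.42). H2a genes had 812 and 2820 (ratio 3.47), and H2b genes 2466 and 12114 (ratio 4.91). H3 genes had 201 and 1121 (ratio 5.59), and H4 genes 1567 and 5278 (ratio 3.37). Within a nucleosome the core histones are present in equal number, but the FPKM of their classes were far apart. H2b FPKM was 3.04 times that of H2a in pre-pro-B and 4.30 times in pro-B, and H3 FPKM was 0.128 times that of H4 in pre-pro-B and 0.212 times in pro-B. H2b took 41.1% of histone FPKM in pre-pro-B and 49.3% in pro-B, and H3 3.35% and 4.56%. The order of the classes, with H2b first, H4 second and H3 last, was the same in both libraries.

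**Figure D2:**
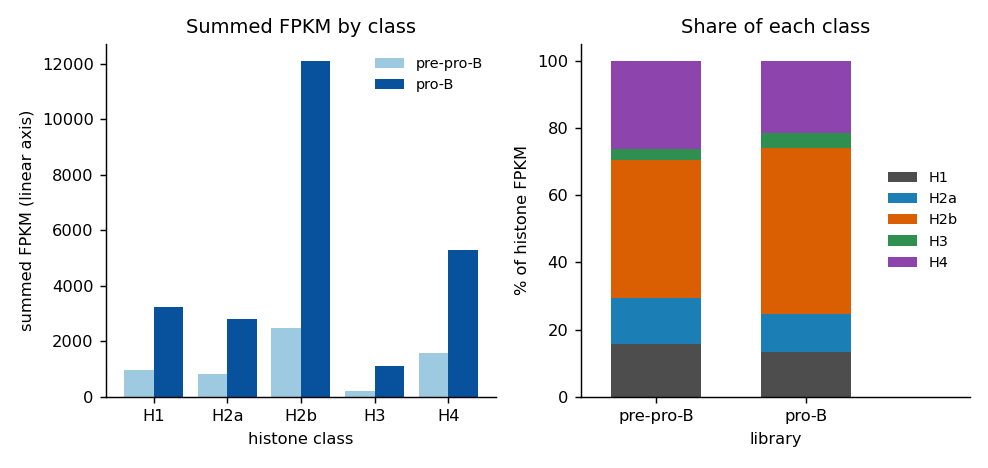
Summed FPKM of each histone class in the pre-pro-B and pro-B libraries (left, linear axis from 0) and the share of each class in the histone FPKM of a library (right). Each class was higher in pro-B, and H2b went from 41.1% to 49.3% of the total.

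H1, the linker histone, is encoded by genes that each make a different protein. *Hist1h1a* was the most abundant in both libraries, with 520.3 FPKM in pre-pro-B (interval 49.2 to 1079) and 1012 in pro-B (34.8 to 2048), a ratio of 1.94 that fell short of the 2-fold call. The other somatic genes changed more. *Hist1h1b* went from 91.9 to 722 FPKM (ratio 7.85), *Hist1h1c* from 189.6 to 890.00 (ratio 4.69), *Hist1h1e* from 82.4 to 372 (ratio 4.52) and *Hist1h1d* from 64.6 to 252 (ratio 3.90). The share of *Hist1h1a* in H1 FPKM was accordingly 54.8% in pre-pro-B and 31.2% in pro-B, and without it the H1 ratio was 5.22. *Hist1h1t*, the H1 of spermatocytes, had 0.0327 and 0.386 FPKM.

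Among the H2a genes, 11 of 18 were higher, none was lower, 3 were within 2-fold and 4 were listed at 0 in both. *Hist2h2ac* led in both libraries, with 393 FPKM in pre-pro-B (interval 64.6 to 678) and 857 in pro-B (148 to 1427), a ratio of 2.18. *Hist1h2af* went from 110.5 to 674 FPKM (ratio 6.10) and *Hist1h2ak* from 96.6 to 436 (ratio 4.51). From the smaller clusters, *Hist3h2a* went from 73.9 to 337 FPKM and *Hist2h2ab* from 22.2 to 98.5. The one H2a gene with the lower value in pro-B was *Hist1h2an*, with 13.4 FPKM in pre-pro-B (interval 0.302 to 26.3) and 6.29 in pro-B (0 to 12.6). Its log2 change of -0.98 stayed just inside 2-fold on the scale used here, its intervals overlap, and of its 97-base windows only 16.5% occur once in mm9. With a pseudocount of 0.1, or on the TPM scale, it passed that threshold. *Hist2h2aa1* and *Hist2h2aa2*, which encode the same protein and have few or no unique windows, had 0 FPKM in pre-pro-B and 0.0948 and 0.000124 in pro-B.

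H2b carried the largest sum and the most abundant histone gene. *Hist2h2bb* had 1372 FPKM in pre-pro-B (interval 307 to 2430.1), the rank of 7 among all protein-coding genes, and 6663 in pro-B (652 to 12676), the rank of 1. It made up 55.6% of H2b FPKM in pre-pro-B and 55.0% in pro-B. *Hist1h2bb* followed, with 547 FPKM (interval 124 to 962) and 2935 (551 to 5321), a ratio of 5.36. *Hist1h2bl* had the largest log2 change of any member, 4.47: it had 48.2 FPKM in pre-pro-B (interval 4.04 to 91.98) and 1085 in pro-B (223 to 1912), intervals that do not overlap. These 3 genes account for most of the class.

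Other H2b genes spread over a wide range. *Hist1h2bp* went from 1.93 to 33.8 FPKM (ratio 17.5) and *Hist3h2ba* from 2.60 to 39.4 (ratio 15.1), in each case with overlapping intervals. *Hist1h2bc* was called lower, with 63.5 FPKM in pre-pro-B (interval 7.54 to 119.5) and 25.7 in pro-B (0.434 to 53.4). *Hist2h2be* had 35.03 and 21.5 FPKM, the lower value again in pro-B but within 2-fold. Its transcript model of 2618 bases runs far past the coding end, and no stem-loop of the form was found for it. In all, 12 of 17 H2b genes were higher, 1 was lower, 3 were within 2-fold and 1 was listed at 0 in both.

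H3 genes had the lowest summed level of the 5 classes. Their ratio of 5.59 was the largest of the classes with *Hist1h3c* included, and without that gene it was 3.99. *Hist1h3c* was the leading one in pro-B, at 32.8 FPKM in pre-pro-B (interval 2.47 to 62.97) and 452 in pro-B (98.5 to 802), a ratio of 13.8. Its share of H3 FPKM went from 16.3% to 40.3%. *Hist1h3g* went from 1.98 FPKM (interval 0 to 3.94) to 53.2 (6.18 to 99.98). *Hist1h3e* went from 64.2 to 239.9 FPKM and *Hist1h3d* from 21.7 to 107. Of the Hist2 members, *Hist2h3b* went from 4.48 to 28.4 FPKM and *Hist2h3c1* from 6.43 to 16.2, while *Hist2h3c2* was listed at 0 in pre-pro-B and had 4.49 in pro-B, so that its call rests on the added 1 FPKM. Of 12 H3 genes, 11 were higher and 1, *Hist1h3a*, was within 2-fold (38.98 and 33.9 FPKM).

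H4 was the class with both large rises and most of the falls. *Hist1h4d* had 649 FPKM in pre-pro-B (interval 88.3 to 907) and 1879 in pro-B (282 to 2724). *Hist1h4k* went from 171 to 1397 FPKM (ratio 8.17) and *Hist1h4f* from 259 to 1051 (ratio 4.06). Outside Hist1, *Hist2h4* went from 54.7 to 246 FPKM and *Hist4h4*, the single gene of the Hist4 locus, from 8.57 to 17.8. Against these, 3 of the 13 genes were lower in pro-B. *Hist1h4j* had 109 FPKM in pre-pro-B (interval 7.22 to 193) and 2.19 in pro-B (0 to 4.31), and was 49.5-fold higher in pre-pro-B with intervals that do not overlap. *Hist1h4c* had 125 FPKM (interval 9.12 to 223) and 17.9 (0.380 to 34.2), and *Hist1h4m* 17.4 (0.585 to 34.1) and 0.615 (0 to 1.17). In all, 7 H4 genes were higher, 3 lower, 2 within 2-fold and 1 listed at 0 in both.

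**Figure D3:**
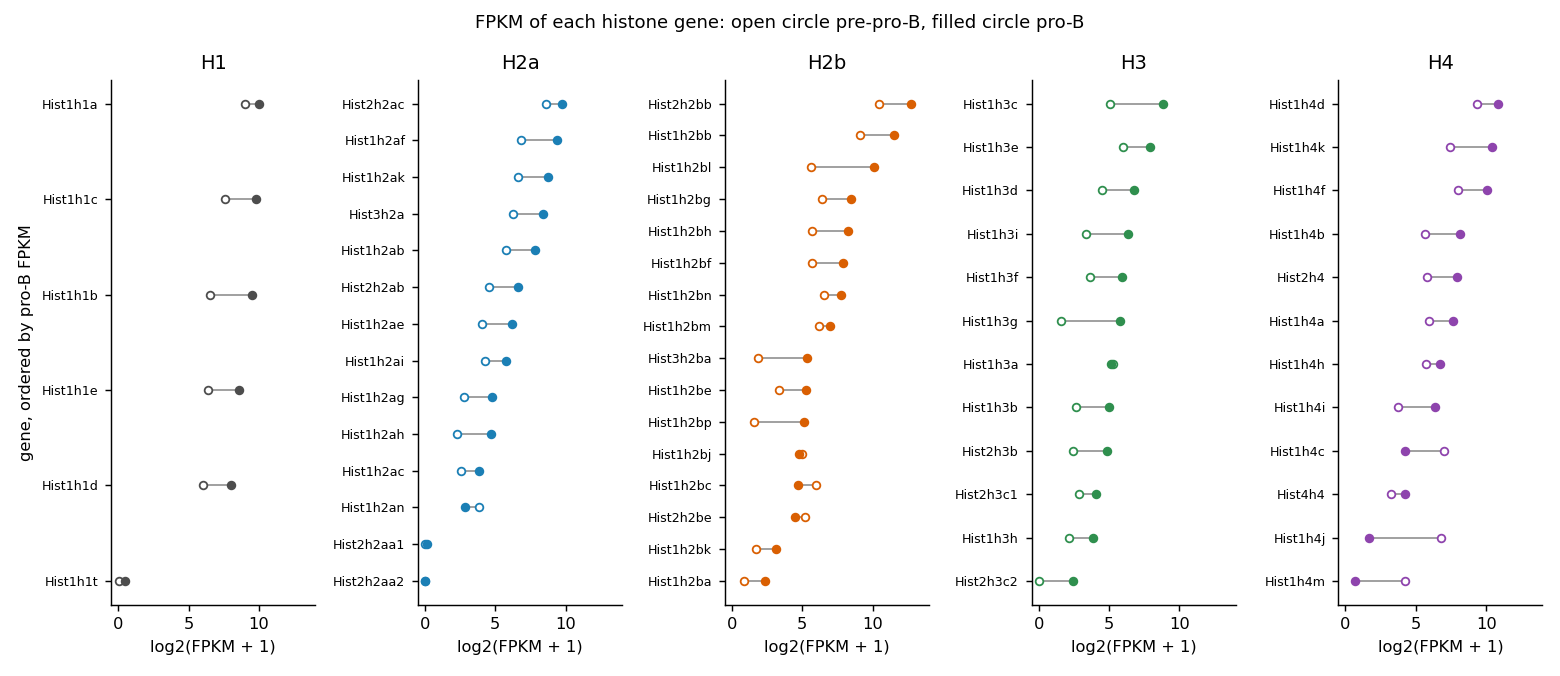
log2(FPKM + 1) of the 60 histone genes with an FPKM above 0 in a library, in 1 panel per class and ordered by pro-B level. Open circles are the pre-pro-B library and filled circles the pro-B library; most filled circles lie to the right, and those of Hist1h4j, Hist1h4c, Hist1h4m and Hist1h2bc lie to the left by more than 2-fold.

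Several genes make the same protein, and their coding sequences are close enough that short reads can fit more than one. Translation of the GENCODE coding sequences gave 31 different proteins for 65 members, and 7 of these proteins were shared by several genes, 41 in all. These counts follow the annotated coding sequences, some of which differ in length from others of their class. *Hist2h3c1* has 181 residues there, where the other translated H3 genes have 136. *Hist2h2bb* has 120, *Hist1h2bp* 138 and *Hist1h2bq* 135, where most H2b genes have 126. Genes of 1 protein may thus be counted apart. All 13 H4 genes encode 1 protein of 103 residues, so the sum for that protein, 1567 FPKM in pre-pro-B and 5278 in pro-B, is the class sum, and the genes that fell are part of a protein whose summed message rose. In H3, by this annotation, 6 genes encode one protein of 136 residues, among them *Hist1h3c* (140 to 918 FPKM in sum). Another is encoded by 4, among them *Hist1h3g* and *Hist1h3a* (54.0 to 183). In H2a, 9 genes encode one protein of 130 residues (112 to 392 FPKM). In H2b, *Hist1h2bc* shares its protein with *Hist1h2be* and *Hist1h2bg*, and the 3 had 158 FPKM in pre-pro-B and 414 in pro-B together. When genes were merged by protein, with *Hist2h3c2* on its own, 25 of 32 units were higher and 0 were lower, and the median log2 change was 2.02. No share of all genes was computed for merged proteins.

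The room for reads to be shared was measured as the share of 97-base windows, the read length, that occur once in mm9 for each transcript. Only exact copies were counted, so a window that differs from its copies at a single base counts as single. For 7 members the windows are those of a GENCODE transcript, not of the RefSeq transcript behind the FPKM. All windows were single in 9 members, under 50% were in 30, and none was in 6. The 36 members with at least 50% single windows had 27 higher and 1 lower, and a summed ratio of 3.93. The 30 members below that had 18 higher, 3 lower and 5 at 0 in both, and a ratio of 5.10. Abundant genes lay on both sides: all windows of *Hist2h2bb*, *Hist1h1a* and *Hist1h4d* occur once, as do 63.2% of those of *Hist1h2bb*, but 35.2% of those of *Hist1h4k*, the fourth of the members by mean FPKM, and 34.3% of those of *Hist1h2af*. For *Hist1h2bl* the share was 36.5%, for *Hist1h4j* 39.4%, for *Hist1h4m* 11.7% and for *Hist1h2bc* 43.0%, so the split of reads between these genes and their copies bears on their values, and its part in them was not tested. For *Hist1h4c* it was 51.9%. Of the 6 genes listed at 0 in both, 5 have no single window (*Hist1h2ad*, *Hist1h2ao*, *Hist1h2ap*, *Hist1h2bq* and *Hist1h4n*), and *Hist1h2aa*, a testis-type H2a, has only single windows.

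The genes lie in 4 clusters of mm9. Hist1 on chromosome 13 holds 53 members, Hist2 on chromosome 3 holds 10, Hist3 on chromosome 11 holds 2 and Hist4 on chromosome 6 holds 1. Hist1 had 4021 FPKM in pre-pro-B and 16252 in pro-B (ratio 4.04), and Hist2 had 1888 and 7935 (ratio 4.20). Hist3 had 76.5 and 377 (ratio 4.92) and Hist4 8.57 and 17.8 (ratio 2.07). *Hist2h2bb* alone made up 72.7% of the Hist2 sum in pre-pro-B and 84.0% in pro-B, and without it the Hist2 ratio was 2.47. Without *Hist3h2a* the Hist3 sum is *Hist3h2ba* alone, with its ratio of 15.1. The split between clusters was almost the same in both libraries: Hist1 took 67.1% and 66.1% of histone FPKM, and Hist2 31.5% and 32.3%.

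Hist1 falls into blocks of neighbouring genes, taken here as separated by gaps of over 100 kb. The block at chr13:21807632-21925444 holds 17 genes and had a ratio of 5.59, with 9 higher, 2 lower and 4 at 0 in both. Of the 5 genes at chr13:22126982-22135545, 4 were higher and the ratio was 3.03. The largest block, chr13:23622919-23856283, holds 29 genes with 22 higher and 2 lower and a ratio of 3.70. At chr13:24025637-24026720 lie the testis-type pair *Hist1h2aa* and *Hist1h2ba*, with 0.848 FPKM of *Hist1h2ba* in pre-pro-B and 4.14 in pro-B. *Hist1h4j*, which fell, sits in the first block between *Hist1h2bm* (72.4 and 128 FPKM, within 2-fold) and *Hist1h4k*, which rose (171 and 1397).

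**Figure D4:**
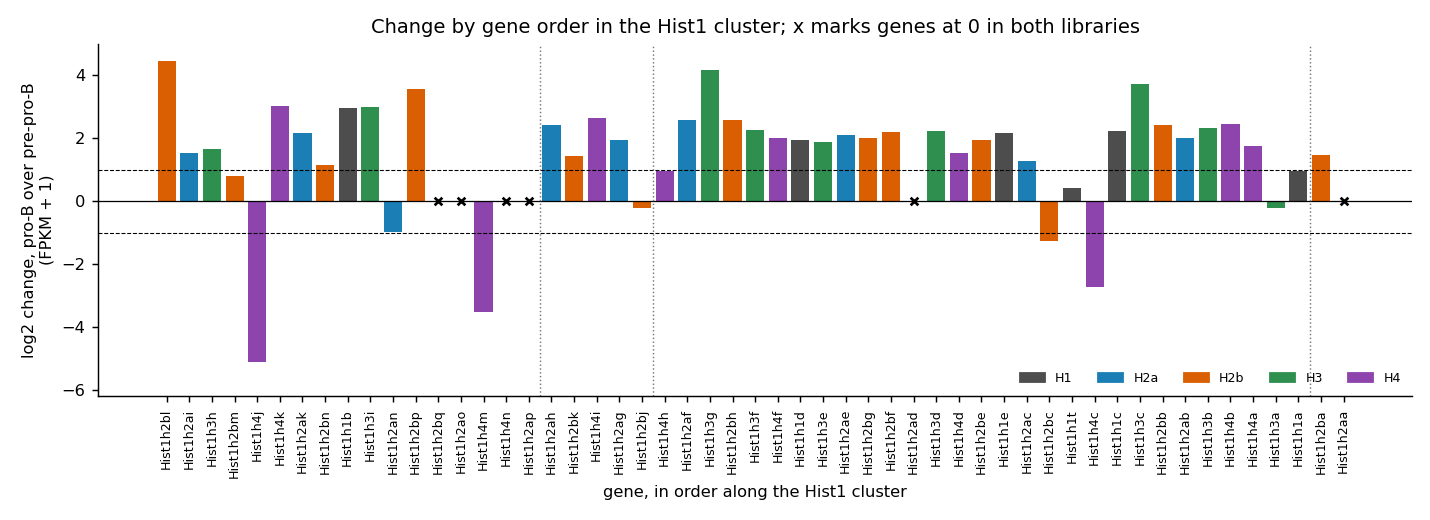
log2 change of the 53 Hist1 genes in their order along chromosome 13, coloured by class, on the FPKM + 1 scale. Dotted vertical lines separate blocks of genes, dashed lines mark 2-fold, and crosses mark the 6 genes listed at 0 in both libraries; bars above 0 are found in every block and the 4 bars below the lower dashed line stand among them.

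Many H2a and H2b genes are arranged head to head and share the stretch between their starts. There were 12 pairs of members whose starts lie within 1000 bases of each other on opposite strands, 11 of an H2a with an H2b gene, with 168 to 693 bases between starts. Both partners were higher in 5 pairs, 1 was higher in 6 and neither in 1. Of all 66 members 68.2% were higher, so these counts are not read as a result of the arrangement. The pairs of *Hist1h2aa*, *Hist1h2ad* and *Hist1h2ao* hold genes listed at 0 in both libraries. *Hist1h2ae* (15.9 to 72.2 FPKM) and *Hist1h2bg* (85.4 to 349.97) moved by nearly the same factor, with log2 changes of 2.12 and 2.02. *Hist1h2ai* and *Hist1h2bl* both rose, but with log2 changes of 1.52 and 4.47. The partners *Hist1h2ac* (4.91 to 13.4 FPKM) and *Hist1h2bc* (63.5 to 25.7) went opposite ways, and *Hist1h2an* and *Hist1h2bp* had log2 changes of -0.98 and 3.57.

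RefSeq promoter windows, from 250 bases before to 50 bases after the annotated start on GRCm38.p6, were matched for 61 of the 66 members, with 62 windows. The octamer ATTTGCAT, on either strand, was present in 14 of the 62 windows (22.6%) and in 1.74% of all 32851 promoter windows. All 14 were in H2a (7 of 18) and H2b (7 of 16) windows and none in H1, H3 or H4 windows; the windows of H2a and H2b genes that lie head to head overlap. CCAAT on either strand was present in 53 windows (85.5%, against 37.4% of all), in each H1, H2a, H2b and H3 window and in 3 of 12 H4 windows. TATAAA was present in 35 windows (56.5%, against 13.6%), and GGTCC in 26 (41.9%, against 45.5%), 11 of them among the 12 H4 windows. These are matches of letters and were not tested for binding. The promoters of the most abundant H2b, H2b with the octamer and H2b with the largest rise, and of the leading H4 gene, are shown with the octamer, CCAAT (or ATTGG, its reverse complement) and TATAAA in capitals.
Hist2h2bb (GRCm38.p6 chr3:96269450-96269749, plus strand): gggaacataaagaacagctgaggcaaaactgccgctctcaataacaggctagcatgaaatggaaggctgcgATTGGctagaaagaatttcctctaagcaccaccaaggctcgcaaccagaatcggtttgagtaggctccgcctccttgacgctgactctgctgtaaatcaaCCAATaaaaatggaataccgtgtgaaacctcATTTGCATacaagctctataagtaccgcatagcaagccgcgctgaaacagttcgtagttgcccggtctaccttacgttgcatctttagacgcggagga
Hist1h2bb (GRCm38.p6 chr13:23746484-23746783, plus strand): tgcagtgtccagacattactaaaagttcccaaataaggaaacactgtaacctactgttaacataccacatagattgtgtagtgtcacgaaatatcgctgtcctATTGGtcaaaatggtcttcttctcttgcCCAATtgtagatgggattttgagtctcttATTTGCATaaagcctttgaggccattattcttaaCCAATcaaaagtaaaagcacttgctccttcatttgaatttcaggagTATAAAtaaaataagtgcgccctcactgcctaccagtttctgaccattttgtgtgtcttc
Hist1h2bl (GRCm38.p6 chr13:21716134-21716433, minus strand): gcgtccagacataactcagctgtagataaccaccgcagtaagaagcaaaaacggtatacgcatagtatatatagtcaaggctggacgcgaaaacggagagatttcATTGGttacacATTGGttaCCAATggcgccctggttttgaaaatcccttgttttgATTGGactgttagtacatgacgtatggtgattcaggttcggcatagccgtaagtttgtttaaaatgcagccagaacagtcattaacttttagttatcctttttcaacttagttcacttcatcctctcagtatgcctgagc
Hist1h4d (GRCm38.p6 chr13:23581318-23581617, plus strand): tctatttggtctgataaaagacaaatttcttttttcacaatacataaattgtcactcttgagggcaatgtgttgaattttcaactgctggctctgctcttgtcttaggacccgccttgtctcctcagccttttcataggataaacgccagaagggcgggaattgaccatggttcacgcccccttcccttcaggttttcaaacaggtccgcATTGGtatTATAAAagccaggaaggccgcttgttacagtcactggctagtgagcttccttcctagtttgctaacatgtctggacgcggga
The octamer starts at -48 relative to the annotated start in *Hist2h2bb* and at -90 in *Hist1h2bb*. H2b genes with it had 2089 FPKM in pre-pro-B and 10126 in pro-B (7 genes, ratio 4.85), and those without it 278 and 1941 (8 genes, ratio 6.98). H2a genes with it had 546 and 1526 (7 genes, ratio 2.80), and those without it 267 and 1294 (11 genes, ratio 4.85). In both classes the group with the octamer thus had the higher summed level. That order rests on a few abundant genes. In H2b, *Hist2h2bb* (1372 and 6663 FPKM) and *Hist1h2bb* (547 and 2935) made up most of the group with the octamer. In H2a, *Hist2h2ac* (393 and 857) did. Without these genes the group with the octamer had the lower summed level in both classes and both libraries. The order of the ratios rests on single genes. In H2b the ratio without the octamer was 3.72 when *Hist1h2bl* was left out, below the 4.85 of the genes with it, and in H2a the ratio with the octamer was 4.39 when *Hist2h2ac* was left out and that without it 3.97 when *Hist1h2af* was. *Hist1h2bc* and *Hist2h2be*, both with the lower value in pro-B, have no matched promoter window and are in neither H2b group. The medians of the log2 change differed in order between the classes: 1.95 with and 2.40 without the octamer in H2b, and 2.02 with and 0.13 without it in H2a, where 3 of the genes without it were listed at 0 in both libraries.

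Where a RefSeq transcript ends relative to its stem-loop bears on which reads count toward its FPKM. In 8 members the transcript ended within 20 bases of the stem-loop, in 30 it ended earlier and in 15 it ran past it. The other 13 were left out of this grouping. The first search found no stem-loop for them, or their RefSeq span did not match the transcript length. Among them is *Hist2h2bb*, the most abundant member, whose stem-loop from the later search lay at the end of its transcript. These 13 had a ratio of summed FPKM of 4.53. In 31 members the transcript was the coding sequence alone, with no UTR. The ratio of summed FPKM was 3.98 for those ending at the stem-loop, 3.91 for those ending before it and 3.996 for those running past it, and the medians of the log2 change were 1.98, 1.95 and 1.95. The transcripts that run past it are the longer ones (median 912 bases against 481.5 and 382.5) and had the lower median level, 12.6 FPKM in pre-pro-B and 59.8 in pro-B, against 25.1 and 152 for those ending at it. With 1 library per cell type the differences between these ratios have no interval.

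The machinery that makes histone messages had a smaller median change than the messages. Of 24 processing and transcription factors, 2 were higher and 2 lower, with a median log2 change of 0.22. Of all genes 6.34% were higher and 9.94% lower, so these counts are near the shares of all genes. *Slbp*, the stem-loop binding protein, went from 74.5 to 208 FPKM (ratio 2.79), and *Eri1*, an exonuclease that trims the stem-loop, from 29.8 to 63.1 (ratio 2.12). *Cpsf3*, the endonuclease, went from 59.6 to 28.4 FPKM, and *Zcchc6* (now Tut7), a uridylyl transferase that acts in histone message decay, from 49.7 to 22.7. *Npat* had 23.4 and 28.5 FPKM, and *Casp8ap2* (Flash), its partner in the histone locus body, 26.5 and 35.3. The U7 snRNP proteins *Lsm10* (19.1 and 14.4) and *Lsm11* (1.93 and 2.86), and *Zfp473* (0.745 and 1.68), were within 2-fold on the log2(FPKM + 1) scale. The Sm protein genes *Snrpe* (208 to 323), *Snrpb* (41.6 to 76.3) and *Snrpd3* (54.7 to 64.8) were within 2-fold too, as were *Cstf2*, a cleavage factor subunit (42.5 to 51.1), and *Zcchc11* (now Tut4), another uridylyl transferase (59.6 to 47.7).

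Of 11 replacement histones measured, 3 were higher and 1 was lower, where 6.34% of all genes were higher and 9.94% lower. The count of 1 lower is near the share of all genes. The replacement histones summed to 1617 FPKM in pre-pro-B and 1552 in pro-B (ratio 0.960). *H2afx* (H2A.X), which is marked at DNA breaks, went from 47.4 to 239 FPKM (ratio 5.05), *Cenpa*, the centromeric H3, from 35.9 to 107 (ratio 2.99) and *H2afz* (H2A.Z) from 3.13 to 12.4. *H2afy* (macroH2A1), which is linked to repressed chromatin, went the other way, from 809.96 to 232. The H3.3 genes had 157 and 178 FPKM (*H3f3a*) and 463 and 635 (*H3f3b*), and *H2afv* and *H1f0* had 46.9 and 79.5, and 30.8 and 54.7. The summed replacement H3.3 level exceeded that of the 12 replication-dependent H3 genes in pre-pro-B, 201 FPKM, and was below it, 1121 FPKM, in pro-B. The order in pro-B rests on *Hist1h3c* (452 FPKM), without which the H3.3 level was the higher one there too. The intervals were wide, 117 to 1152 for *H3f3b* in pro-B.

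Histone chaperones, which carry histones to DNA, were partly higher. Of 27, 11 were higher and 0 lower, with a median log2 change of 0.55, where 6.34% of all genes were higher and 9.94% lower. *Asf1b*, the form of Asf1 found in dividing cells, had the largest change, from 9.01 to 72.5 FPKM (ratio 8.05), while *Asf1a* had 42.9 and 47.6. *Nasp*, a carrier of H1 and of H3 with H4, went from 54.97 to 152 FPKM, *Hat1*, which acetylates new H4, from 67.9 to 198, and the CAF-1 subunits *Chaf1a* and *Chaf1b* from 4.73 to 13.2 and from 14.2 to 33.5. *Dek* (93.4 to 282), *Ssrp1* (108 to 224), *Anp32e* (44.02 to 119), *Mcm2* (26.9 to 59.3), *Mms22l* (14.4 to 39.96) and *Hjurp* (13.5 to 29.9) complete the higher ones. Of the 6 most abundant of the list, 3 were within 2-fold: *Npm1* (nucleophosmin), with 223 FPKM in pre-pro-B and 186 in pro-B, *Supt16*, the partner of Ssrp1 in the FACT complex (97.8 and 132), and *Set* (86.9 and 129). The chaperones of the replacement H3.3 had 7.26 and 10.96 FPKM (*Hira*), 11.95 and 8.22 (*Daxx*) and 89.2 and 86.5 (*Atrx*), all within 2-fold.

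Genes of S phase as a list were mostly higher. Of 30, 24 were higher and 1 was lower, where 6.34% of all genes were higher and 9.94% lower. The median log2 change of the list was 1.63. Its FPKM summed to 888 in pre-pro-B and 2692 in pro-B (ratio 3.03), beside 4.10 for the histone genes. *Pcna*, the sliding clamp of the replication fork, went from 59.2 to 206 FPKM, *Mcm6* and *Mcm5*, of the replicative helicase, from 117 to 288 and from 46.3 to 144, *Ccna2*, the S phase cyclin, from 44.8 to 221, *Rrm1* and *Rrm2*, the subunits of ribonucleotide reductase, from 100.2 to 273 and from 36.1 to 219, and *Tyms*, thymidylate synthase, from 7.67 to 58.6. On the log2(FPKM + 1) scale the largest changes of the list were those of *Tyms* (ratio 7.64), *Rrm2* (ratio 6.08) and *Gins1* (ratio 5.23). *Mcm4* (57.9 to 117) and *Cdk2* (49.5 to 75.96) were within 2-fold, and *Slc29a1*, a nucleoside transporter, was lower, from 27.1 to 12.8. The histone genes and these lists come from the same 2 libraries, and the share of S phase cells was not measured, so its part in the histone values was not tested.

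**Figure D5:**
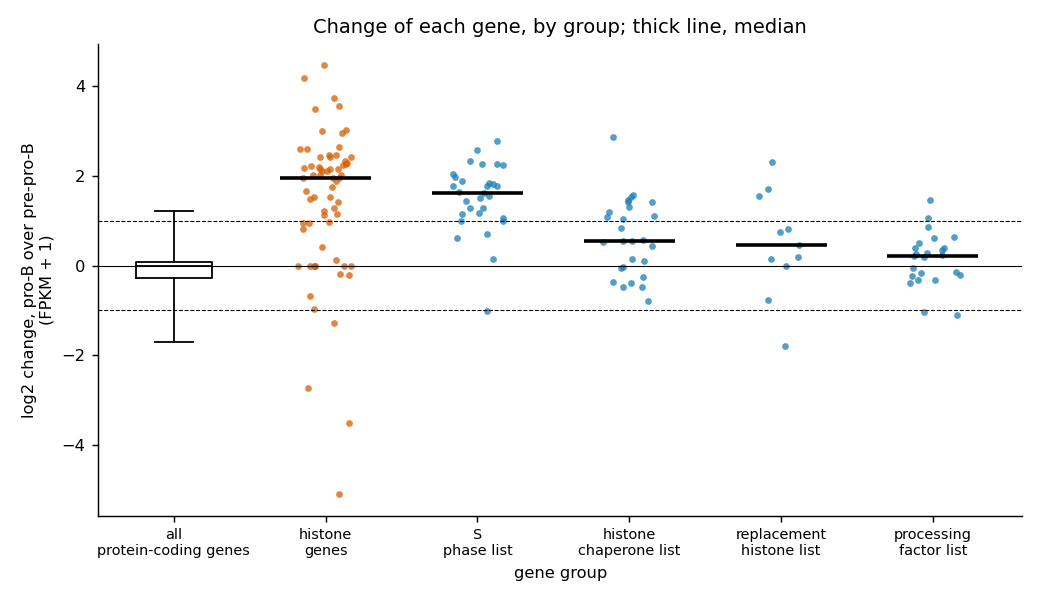
log2 change from pre-pro-B to pro-B on the FPKM + 1 scale, for the 66 histone genes and for the genes of 4 related lists, each point a gene and each thick line a median; the box shows the quartiles and median of all 20250 genes, with whiskers at percentiles 5 and 95. The median is 1.95 for histone genes, 1.63 for the S phase list, 0.55 for chaperones, 0.46 for replacement histones and 0.22 for processing factors.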

How the data were processed

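RNA-seq of 1 *Ebf1* -/- pre-pro-B library and 1 *Rag2* -/- pro-B library was used, each of about 90 M single-end reads of 97 bp by the labels. The files give no counts, so the depth behind each value is known only as that nominal number. The authors trimmed the strand-specific reads, aligned them to mm9 with TopHat (1.5 in the submitters' processing notes, 1.4.0 in the supplement), with at most 20 alignments for a read. The deposited FPKM of 30485 RefSeq transcripts are the authors' Cuffdiff 2.1.1 estimates, made with multi-read and bias correction, at least 10 alignments for a transcript to be tested and classic FPKM scaling. The deposited signal limits beside each FPKM are Cuffdiff's 95% interval. A second deposited table holds the authors' fold changes, p-values and q-values and was not used, including 2 columns of per-sample values.

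FPKM of the 26555 protein-coding transcripts named in a RefSeq gene table (GRCm38.p6, names only) were summed per gene symbol, giving 20250 genes, and 73 entries gave the 66 histone genes. With 1 library per cell type no test was made: sums, ratios, counts past 2-fold on log2(FPKM + 1) and overlap of intervals are given. Short transcripts have few positions for a read, so FPKM of models near the coding length depend most on Cuffdiff's length correction. Stem-loops, 97-base windows and translations were computed from mm9 with GENCODE M1 coding sequences, which replaced the RefSeq proteins planned for merging genes. Promoter sequences are from RefSeq on GRCm38.p6. Python 3.11.15, numpy 2.4.6, pandas 2.3.3, numba 0.67.0 and matplotlib 3.10.9 were used, and the counts past a fold and the window counts were tested on simulated data.

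The members, lists and tests were chosen with earlier results of these data known. Genes named are the 3 with the highest mean FPKM of each class, the 5 largest rises and 5 largest falls, all H1, Hist2, Hist3 and Hist4 genes, the core processing factors, and of each list the 6 highest by mean FPKM and those past 2-fold. Of the S phase list, some genes past 2-fold are given by count alone. *Hist1h3a*, *Hist1h2bm*, *Hist1h2be*, *Hist1h2ba*, *Hist1h4b*, *Hist1h4a*, the genes at 0, the partners in pairs, *H2afv*, *H1f0*, *Asf1a*, *Hira*, *Daxx*, *Atrx*, *Mcm4*, *Cdk2* and the stromal markers were chosen after seeing their values. The same holds for *Cd3g*. Alternatives were other pseudocounts, a filter on mean FPKM, TPM and median-ratio scaling, the most abundant transcript, other fold thresholds, merged proteins, FPKM times length, sums without the highest gene, other stem-loop limits and, added after seeing the data, members with mostly single windows and octamer groups without their most abundant gene.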

Additional observations from a re-analysis of the deposited data

How the results depend on the processing

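Over the alternatives the summed histone FPKM stayed higher in pro-B, by 3.84 to 4.50 times, and the median log2 change of the members stayed between 1.85 and 2.15. The number of members higher at 2-fold was 45, where 6.34% of all genes were higher, and 49 and 31 at thresholds of 1.5-fold and 4-fold. For those 2 thresholds and for merged proteins the share of all genes was not computed. The number higher was 25 of 32 with 0 lower (main 4) when genes of one protein were merged. Among members with mostly single windows it was 27 of 36 with 1 lower. Both count fewer units, and in the merge the 4 lower genes were summed with higher genes of the same protein. Leaving out the most abundant gene changed the ratio to 5.22 for H1 (without *Hist1h1a*), 2.47 for Hist2 (without *Hist2h2bb*) and 15.1 for Hist3 (without *Hist3h2a*), and gave no value for Hist4, which has 1 gene. For H3 it was 3.99 (without *Hist1h3c*), below H1, H2b (4.98) and H2a (4.68) under the same choice. With the stem-loop limit at 60 bases, the group of transcripts ending before it kept 1 gene, with a log2 change of 2.60. Counts over short lists moved by a single gene or a pair: processing factors higher fell to 1 on the TPM scale and lower to 0 with median-ratio scaling, chaperones lower rose to 1 with a pseudocount of 0.1 and with none, and S phase genes lower fell to 0 with median-ratio scaling. No direction reversed. Median-ratio scaling shifted every log2 value by 0.13 and TPM by -0.09. No paired analysis was possible because each cell type has 1 library, and for the same reason no library could be left out.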
